A study of Homo sapiens with 12 samples.

Results

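The 8 genes described here encode the subunits of the hypoxia-inducible factors (HIF) and the proteins that tie these factors to oxygen. They were HIF1A, EPAS1, ARNT, EGLN1, EGLN2, EGLN3, VHL and HIF1AN, matched by symbol to 8 of the 62703 Ensembl gene identifiers in the deposited tables. RNA was sequenced from HK2 cells, a line immortalised from the epithelium of the human proximal tubule, in 12 libraries of 4 groups with 3 libraries each. The study asked how high glucose and FGF9, a fibroblast growth factor, alter tubular cells in diabetic nephropathy. NG cells were given a control vector in 5.5 mM glucose, and si-FGF9 cells an siRNA against FGF9 in what the labels leave as the same glucose. HG cells were kept in 50 mM glucose, and HG+OE-FGF9 cells were in 50 mM glucose with a lentiviral vector that overexpresses FGF9. Lipofectamine carried the constructs into the cells. The sources describe neither a non-targeting siRNA nor a vector given to HG cells, so transfection and the intended change cannot be told apart when si-FGF9 is set against NG or HG+OE-FGF9 against HG. They also differ on the NG medium, which the results text of the study describes as one with mannitol, and on the type of the FGF9 vector.

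HIF is a pair of an oxygen-regulated alpha subunit, HIF-1α from HIF1A or HIF-2α from EPAS1, and the constitutive beta subunit from ARNT. In the presence of oxygen the prolyl hydroxylases PHD2 (EGLN1), PHD1 (EGLN2) and PHD3 (EGLN3) hydroxylate the alpha subunits, which pVHL then binds and delivers to an E3 ubiquitin ligase, while the asparaginyl hydroxylase FIH (HIF1AN) blocks the recruitment of coactivators. In the kidney, tubular cells are known mainly for HIF-1α, and loss of VHL in the tubule is the founding event of most clear cell renal carcinomas. Since oxygen acts on the stability of the alpha proteins, RNA levels such as those given here do not measure HIF activity.

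Active HIF binds the core ACGTG or GCGTG of the hypoxia response element, and EGLN1 and EGLN3 are themselves HIF targets, so the start regions of the members were searched for these letters. RefSeq windows on GRCh38.p14, running from 250 bases before to 50 bases after a start site, were found for 7 of the 8 genes, with 9 windows in all. On either strand, ACGTG was found in windows of 2 members and GCGTG in windows of 2 others. Among all 35116 windows of this length, 21.4% held ACGTG, 36.5% GCGTG and 48.4% at least 1 of them. The windows of ARNT, EGLN3 and HIF1AN held neither. The 3 stretches of 30 bases below are shown because they hold the matches, printed in capitals, in a regulator or alpha subunit described below. They are given 5′ to 3′ on the strand of the gene, from chr1:231422283-231422312 (minus strand) for EGLN1, chr19:40799130-40799159 (plus strand) for EGLN2 and chr2:46297278-46297307 (plus strand) for EPAS1. The match in EGLN2 reads ACGTG on both strands and is also the E-box CACGTG.
EGLN1: gggccgtggtgtACGTGcagagcgcgcaga
EGLN2: gcggggcgcggtCACGTGcccaccgggcga
EPAS1: gggcctgccggcGCGTGcccgcccacacac
HIF1A had the largest change in RNA among the members, and the 250 bases before its first start site, at chr14:61695263-61695512 on the plus strand, are shown whole with the GCGTG match in capitals.
HIF1A: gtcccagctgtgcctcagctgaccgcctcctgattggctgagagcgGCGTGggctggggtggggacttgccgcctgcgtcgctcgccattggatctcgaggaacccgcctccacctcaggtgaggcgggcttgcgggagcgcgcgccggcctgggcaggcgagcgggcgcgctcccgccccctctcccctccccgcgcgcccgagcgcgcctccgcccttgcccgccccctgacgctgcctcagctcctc
The match lies 204 bases before the RefSeq start site in HIF1A, 117 in EPAS1, 13 in EGLN1 and 49 in EGLN2. Of the 250 bases before that site, GENCODE exons of the same gene cover 0 in HIF1A, 5 in EPAS1, 57 in EGLN2 and all 250 in EGLN1. The match in EGLN1 thus lies within an exon of that annotation. A match of so few letters is a description of the sequence and says nothing of binding.

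Values were deposited as TPM, transcript abundance scaled for gene length and to the same total in each library. Levels of different genes are set beside each other on that scale without a correction for GC content, which fold changes followed over all genes. The depth of a library and its counting error are unknown. FGF9 was listed at 0 in the 9 libraries of NG, HG and si-FGF9 and at 3.34, 4.03 and 3.82 TPM under HG+OE-FGF9, so the knockdown could not be checked on its target. Of the proximal tubule markers, LRP2, CUBN, SLC34A1 and ANPEP stayed under 1 TPM in every library, AQP1 and SLC5A2 ran from 0.16 to 3.01 TPM, and GGT1 was at 10 TPM or more in every library. Of the epithelial markers KRT7, KRT8, KRT18, KRT19, CDH2 and PAX8 were at 10 TPM or more in all 12 libraries, while CDH1, the gene of E-cadherin, was at 0.28 TPM or less. These levels were not even between groups. EPCAM had a mean of 24.0 TPM in NG and of 6.31 to 10.9 in the other groups. CDH2 had 89.1 against 17.7 to 30.5, and PAX8 78.5 against 26.3 to 64.1. The means of GGT1 and KRT18 went the other way, from 78.7 and 231 in NG to 83.8 to 186 and 286 to 343. KRT7 had 64.0 in NG against 50.1 to 76.3, KRT8 549 against 459 to 553, and KRT19 377 against 229 to 375. Among markers of other cell types, PTPRC, PECAM1, CDH5, COL1A2 and NPHS1 stayed under 1 TPM, and CD68 lay between 107.98 and 158.66 TPM. The collagen gene COL1A1 had 4.35 to 7.81 TPM in NG and 1.54 to 2.79 in the other libraries, and DCN reached 3.91 TPM in NG replicate 2 and stayed under 1 TPM elsewhere. LUM, a matrix gene of mesenchymal cells, had 55.71 to 84.04 TPM in NG and 9.1 to 38.74 in the other libraries. The part of these markers in the results was not tested. Within the HG group the third library stood apart. The SD of the log2 difference over all tested genes was 0.67 and 0.83 between it and the others, against 0.44 between the first and second HG libraries. In HG+OE-FGF9 the third library also differed more from the others (0.64 and 0.65) than these did from each other (0.32).

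In NG cells HIF1A was by far the most abundant member. Its TPM was 468 ± 50.6 (SD, n = 3), followed by EPAS1 at 61.7 ± 0.858, EGLN1 at 35.7 ± 3.61 and EGLN2 at 32.2 ± 4.10. VHL had 16.0 ± 1.88 TPM and ARNT 13.8 ± 0.642. HIF1AN (5.80 ± 1.80) and EGLN3 (1.53 ± 0.195) were the lowest. EGLN1 and EGLN2 overlapped in their NG libraries, while the other neighbours in this order did not. The 8 genes together summed to 635 ± 52.1 TPM in NG, 259.7 ± 79.1 in HG, 202 ± 11.8 under si-FGF9 and 179.5 ± 23.1 under HG+OE-FGF9, and most of the difference was HIF1A. A lower TPM in bulk RNA cannot tell fewer cells with the transcript from less of it per cell.

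**Figure D1:**
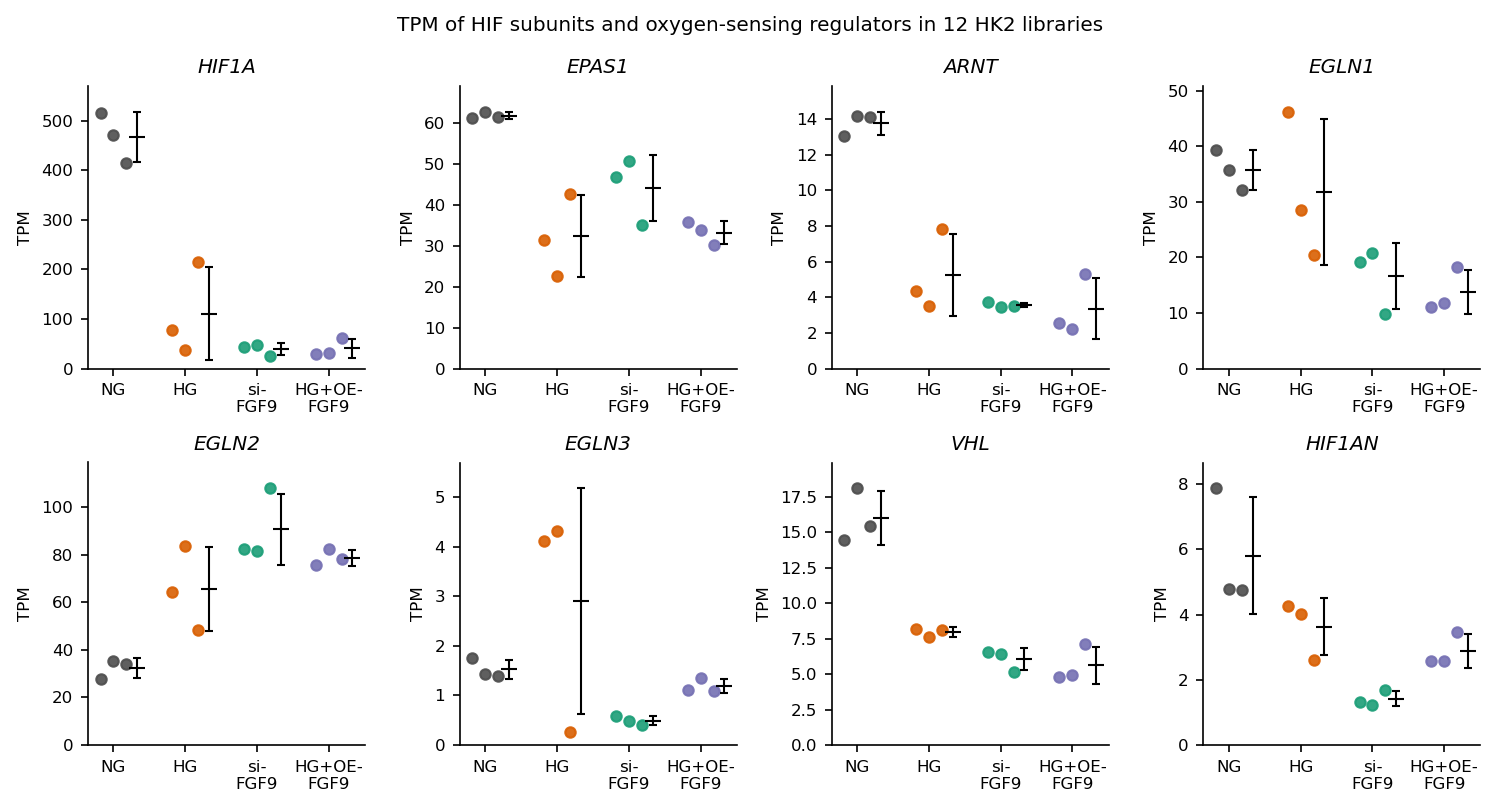
TPM of each of the 8 members in the 12 libraries, with a panel per gene, each point a library in replicate order from left to right, and the bar beside each group its mean ± SD (n = 3); every axis starts at 0 and the scales differ between panels. HIF1A lay between 416 and 517 TPM in NG and at 216 or less in all other libraries, EGLN2 was the only member with every NG library under all others, and EGLN3 split within HG into 4.12, 4.32 and 0.27.

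HIF1A (ENSG00000100644, chromosome 14, 61695513 to 61748259, plus strand) encodes the alpha subunit whose stabilisation drives the acute hypoxic response. Its TPM was 516.73, 471.97 and 415.81 in the NG libraries and 78.35, 37.16 and 216.03 in the HG libraries. It was 43.44, 47.93 and 25.65 under si-FGF9 and 29.72, 30.36 and 62.62 under HG+OE-FGF9. Every library of the 3 treated groups was thus below every NG library, whereas HG overlapped with HG+OE-FGF9, and HG+OE-FGF9 with si-FGF9. The log2 fold change, taken throughout on the log2(TPM + 1) scale, was -2.43 ± 0.505 (SE) for HG versus NG (limma, Benjamini-Hochberg adjusted p = 0.00283), -3.59 for si-FGF9 versus NG (adjusted p = 6.06e-05) and -3.57 for HG+OE-FGF9 versus NG (adjusted p = 0.000112). In plain TPM these are means 4.24, 12.002 and 11.4 times lower than in NG. The first value ran from -3.09 without HG replicate 3 to -1.83 without HG replicate 2. With FGF9 overexpressed in high glucose (HG+OE-FGF9 versus HG) the log2 fold change of -1.14 (95% interval -2.24 to -0.040, adjusted p = 0.164) did not meet the criteria. It met them at -1.73 without HG replicate 2 and was -0.48 without HG replicate 3. The study picked HIF1A as a core gene from these same libraries, so its values here are not evidence independent of that choice.

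EPAS1 (ENSG00000116016, chromosome 2, 46293667 to 46386703, plus strand), the alpha subunit known for longer-term responses and for erythropoietin control, moved much less. It had 61.02, 62.64 and 61.34 TPM in NG, 31.46, 22.64 and 42.61 in HG, 46.69, 50.55 and 35.1 under si-FGF9, and 35.7, 33.7 and 30.1 under HG+OE-FGF9. The NG libraries lay within 2 TPM of each other and above all others, and the 3 treated groups overlapped. The log2 fold change for HG versus NG was -0.96 ± 0.209, with an adjusted p of 0.00345 but short of the threshold of 1, which it passed (-1.18) without HG replicate 3. It was -0.49 for si-FGF9 versus NG (adjusted p = 0.0529), where the sign turned under median of ratios scaling (0.54), quantile normalization (0.069) and the correction for GC content (0.016). Between HG+OE-FGF9 and HG it was 0.081 (95% interval -0.37 to 0.54), and -0.14 without HG replicate 2.

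The balance of the 2 alpha transcripts therefore differed between groups. HIF1A made up 88.3% ± 1.15 of the summed HIF1A and EPAS1 TPM in NG, 72.3% ± 10.7 in HG, 46.4% ± 3.59 under si-FGF9 and 53.5% ± 12.2 under HG+OE-FGF9. Each of the 3 treated groups lay wholly below NG (exact two-sided permutation test, p = 0.1, the smallest that 3 libraries against 3 allow, and 0.114 adjusted over 16 tests of 4 ratios). HG and HG+OE-FGF9 overlapped (exact permutation p = 0.2). The third library of HG+OE-FGF9, at 67.5%, lay above the other 2 of its group, at 45.4% and 47.4%.

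**Figure D2:**
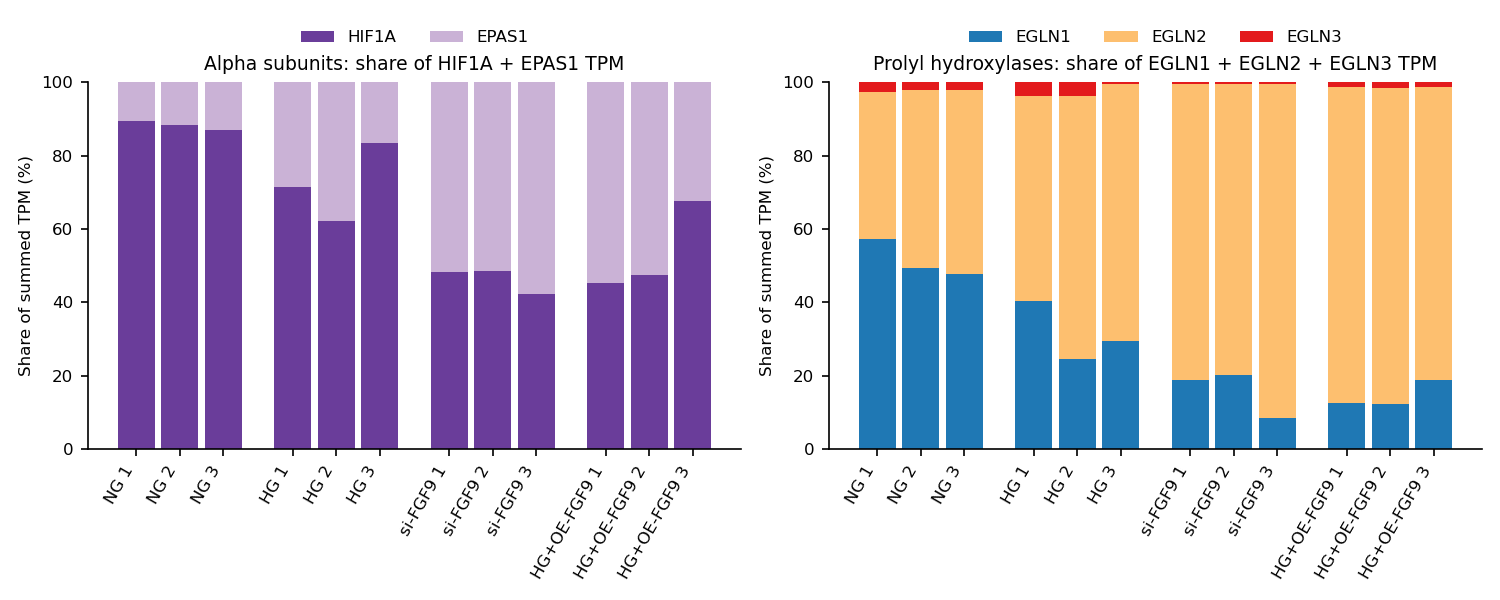
Share of the summed TPM of the 2 alpha subunits (left) and of the 3 prolyl hydroxylases (right) in each of the 12 libraries, in percent, stacked to 100. HIF1A supplied 87.1% to 89.4% of alpha TPM in the NG libraries and as little as 42.2% under si-FGF9, and EGLN2 grew from 40.2% to 50.3% of prolyl hydroxylase TPM in NG to 79.3% or more in the si-FGF9 and HG+OE-FGF9 libraries.

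ARNT (ENSG00000143437, chromosome 1, 150809705 to 150876768, minus strand), the shared beta subunit, went down together with HIF1A. Its TPM was 13.04, 14.19 and 14.11 in NG, 4.37, 3.5 and 7.86 in HG, 3.72, 3.48 and 3.5 under si-FGF9, and 2.57, 2.23 and 5.31 under HG+OE-FGF9. No treated library reached the NG range, and the treated groups overlapped with each other. ARNT fell by 1.30 on the log2 scale for HG versus NG (SE 0.282, adjusted p = 0.00332), by 1.69 for si-FGF9 versus NG (adjusted p = 0.000196) and by 1.82 for HG+OE-FGF9 versus NG (adjusted p = 0.000184). For HG+OE-FGF9 versus HG the log2 fold change was -0.52 (adjusted p = 0.244). With the GC correction the first 2 values became -0.83 and -0.86 and no longer met the criteria. The ratio of HIF1A to ARNT TPM was 34.1 ± 5.13 in NG, 18.7 ± 8.46 in HG, 10.9 ± 3.29 under si-FGF9 and 12.3 ± 1.12 under HG+OE-FGF9. Each treated group was below NG in every library (exact permutation p = 0.1, the smallest possible). Neither this ratio nor the shares of alpha and prolyl hydroxylase TPM were corrected for GC content, in which the members differ. With the correction HIF1A and ARNT stood closer for HG versus NG, at -1.30 and -0.83.

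The 3 prolyl hydroxylases took different courses. EGLN1 (ENSG00000135766, chromosome 1, 231363751 to 231425044, minus strand) encodes PHD2, the main sensor in most cells under normal oxygen. It had 39.33, 35.66 and 32.12 TPM in NG, 46.23, 28.55 and 20.46 in HG, 19.18, 20.88 and 9.89 under si-FGF9, and 11.16, 11.85 and 18.3 under HG+OE-FGF9. HG straddled the NG range, with its first library above and the other 2 below, whereas si-FGF9 and HG+OE-FGF9 lay under NG. The log2 fold change for HG versus NG was -0.24 (95% interval -0.93 to 0.46), and its sign turned without HG replicate 3 (0.030), under median of ratios scaling (0.27), quantile normalization (0.15) and the GC correction (0.47). For si-FGF9 versus NG EGLN1 fell by 1.12 (SE 0.318, adjusted p = 0.00763) and for HG+OE-FGF9 versus NG by 1.34 (adjusted p = 0.00292). Both values shrank with the GC correction, to 0.021 and -0.48, and neither then met the criteria. The first no longer met them without NG replicate 1 (-1.05), NG replicate 2 (-1.11) or si-FGF9 replicate 3 (-0.80). With FGF9 overexpressed in high glucose (HG+OE-FGF9 versus HG) EGLN1 was the 1 member that met the criteria, with a log2 fold change of -1.10 (adjusted p = 0.0495) and groups that did not overlap. It missed them without HG replicate 1 (-0.80), HG+OE-FGF9 replicate 1 (-0.98) or HG+OE-FGF9 replicate 2 (-1.02), with the 6 libraries of the comparison fitted alone (-1.10, adjusted p = 0.161), and with the GC correction (-0.95, adjusted p = 0.0457).

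EGLN2 (ENSG00000269858, chromosome 19, 40798996 to 40808433, plus strand), which encodes PHD1, was the member that went up. Its TPM was 27.57, 35.27 and 33.86 in NG, 64.14, 83.73 and 48.39 in HG, 82.2, 81.64 and 107.85 under si-FGF9, and 75.77, 82.25 and 77.95 under HG+OE-FGF9. All 9 treated libraries lay above all 3 NG libraries, and the treated groups overlapped with each other. EGLN2 rose by a log2 fold change of 1.46 ± 0.194 for si-FGF9 versus NG (adjusted p = 4.3e-05) and 1.27 for HG+OE-FGF9 versus NG (adjusted p = 0.000175), with means 2.81 and 2.44 times that of NG. For HG versus NG it was 0.97 (adjusted p = 0.00237), just under the threshold of 1. It passed that threshold with the GC correction (1.02), median of ratios scaling (1.48) and quantile normalization (1.39), and without HG replicate 3 (1.17), NG replicate 2 (1.04) or NG replicate 3 (1.01). Between HG+OE-FGF9 and HG it was 0.30 (95% interval -0.13 to 0.72).

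EGLN3 (ENSG00000129521, chromosome 14, 33924231 to 34462774, minus strand) encodes PHD3, whose transcript is among the most strongly induced by HIF. It was near the detection filter, at 1.75, 1.44 and 1.39 TPM in NG, 0.58, 0.49 and 0.41 under si-FGF9, and 1.12, 1.36 and 1.1 under HG+OE-FGF9. In HG it was 4.12 and 4.32 in the first 2 libraries, above all other libraries of the study, and 0.27 in the third, below all others. No comparison met the criteria with all 12 libraries. Its log2 fold change stood at 0.37 ± 0.42 for HG versus NG (adjusted p = 0.495) and -0.57 for HG+OE-FGF9 versus HG (adjusted p = 0.383). Without HG replicate 3 these became 1.05 and -1.25 and met the criteria (adjusted p = 0.000255 and 0.000706). For si-FGF9 versus NG it was -0.76 (adjusted p = 0.128) with no overlap of the groups, and for HG+OE-FGF9 versus NG -0.20 (adjusted p = 0.688), a sign that turned under median of ratios scaling (0.19), quantile normalization (0.21) and the GC correction (0.13).

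The summed TPM of the 3 hydroxylases was 69.5 ± 2.60 in NG and 100.1 ± 26.8, 108 ± 9.06 and 93.6 ± 4.92 in HG, si-FGF9 and HG+OE-FGF9, while its makeup moved from EGLN1 to EGLN2. EGLN1 supplied 51.4% ± 5.15 of it in NG, 31.5% ± 8.11 in HG, 15.8% ± 6.49 under si-FGF9 and 14.6% ± 3.61 under HG+OE-FGF9. EGLN2 supplied 46.4% ± 5.44, 65.9% ± 8.64, 83.7% ± 6.59 and 84.1% ± 3.49. For both shares the libraries of HG, si-FGF9 and HG+OE-FGF9 did not overlap with NG, nor those of HG+OE-FGF9 with HG (exact permutation p = 0.1 in each, the smallest possible, and 0.114 adjusted over the 16 tests). EGLN3 supplied 3.70% at most.

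VHL (ENSG00000134086, chromosome 3, 10141008 to 10152220, plus strand), the receptor subunit of the ubiquitin ligase, had 14.47, 18.1 and 15.42 TPM in NG and 8.17, 7.58 and 8.13 in HG. It had 6.54, 6.44 and 5.16 under si-FGF9 and 4.81, 4.93 and 7.09 under HG+OE-FGF9. Among the members it had the tightest HG group, which lay below NG and above the other 2 groups without overlap. VHL had a log2 fold change of -0.92 ± 0.179 for HG versus NG (adjusted p = 0.00213), under the threshold of 1. VHL fell by 1.27 for si-FGF9 versus NG (adjusted p = 6.17e-05) and by 1.37 for HG+OE-FGF9 versus NG (adjusted p = 7.3e-05). With the GC correction these 2 became -0.45 and -0.88 and did not meet the criteria. For HG+OE-FGF9 versus HG it was -0.46 (95% interval -0.85 to -0.065, adjusted p = 0.125).

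HIF1AN (ENSG00000166135, chromosome 10, 100529072 to 100559998, plus strand), the gene of FIH, had 7.88, 4.78 and 4.75 TPM in NG, 4.25, 4.01 and 2.62 in HG, 1.33, 1.24 and 1.69 under si-FGF9, and 2.57, 2.58 and 3.48 under HG+OE-FGF9. The first NG library was well above the other 2, and si-FGF9 lay below every other library. HIF1AN fell by 1.46 for si-FGF9 versus NG (SE 0.225, adjusted p = 0.00011), or by 0.61 with the GC correction, which did not meet the criteria. It stood at -0.54 for HG versus NG (adjusted p = 0.0625), with the sign turned under quantile normalization (0.072), and -0.79 for HG+OE-FGF9 versus NG (adjusted p = 0.0085). With FGF9 overexpressed in high glucose (HG+OE-FGF9 versus HG) it was -0.24 (95% interval -0.73 to 0.25).

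All 8 members passed the filter of 1 TPM in 3 or more libraries and were tested with the other genes, 14639 in all. A gene met the study's criteria when its log2 fold change was 1 or more up or down with an unadjusted p below 0.01. For HG versus NG 2 of the 8 members met them, HIF1A and ARNT, both lower. This stood against 24.4% of all genes tested, with 1.65% higher and 22.7% lower, so the share of members was near the background. For si-FGF9 versus NG 6 of the 8 met them, EGLN2 higher and HIF1A, ARNT, EGLN1, VHL and HIF1AN lower, against 47.6% of all genes, 5.36% higher and 42.2% lower. Between HG+OE-FGF9 and HG it was EGLN1 alone, lower, against 5.61% of all genes, 2.94% higher and 2.67% lower. In HG+OE-FGF9 versus NG 5 of the 8 met them, EGLN2 higher and HIF1A, ARNT, EGLN1 and VHL lower, against 39.7% of all genes, 7.01% higher and 32.7% lower. The comparisons share the NG or HG libraries and are not independent of each other. Without HG replicate 3 the number for HG versus NG was 5, EGLN2 and EGLN3 higher and HIF1A, EPAS1 and ARNT lower, but the share of all genes rose as well, to 32.6%.

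Genes in general were lower in the treated groups on the TPM scale. Over all 14639 genes the median log2 fold change against NG was -0.39 in HG, -0.79 with the siRNA and -0.51 with FGF9 overexpressed, and it was -0.13 when HG+OE-FGF9 was set against HG. Relative to these medians, in the same order, HIF1A was at -2.03, -2.80, -3.06 and -1.01, and ARNT at -0.91, -0.90, -1.31 and -0.39. EGLN2 was at 1.36, 2.25, 1.78 and 0.43 relative to them, and VHL at -0.53, -0.48, -0.86 and -0.33. EGLN1 was at 0.16, -0.32, -0.83 and -0.97. With median of ratios scaling, which removes the overall shift, the genes that met the criteria were split into 1088 higher and 1211 lower for HG versus NG, in place of 242 and 3328, and into 2812 and 2557 for si-FGF9 versus NG, in place of 785 and 6181. The split was 533 higher and 261 lower with FGF9 overexpressed in high glucose, in place of 430 and 391, while HG+OE-FGF9 against NG gave 2605 higher and 2476 lower, in place of 1026 and 4792.

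**Figure D3:**
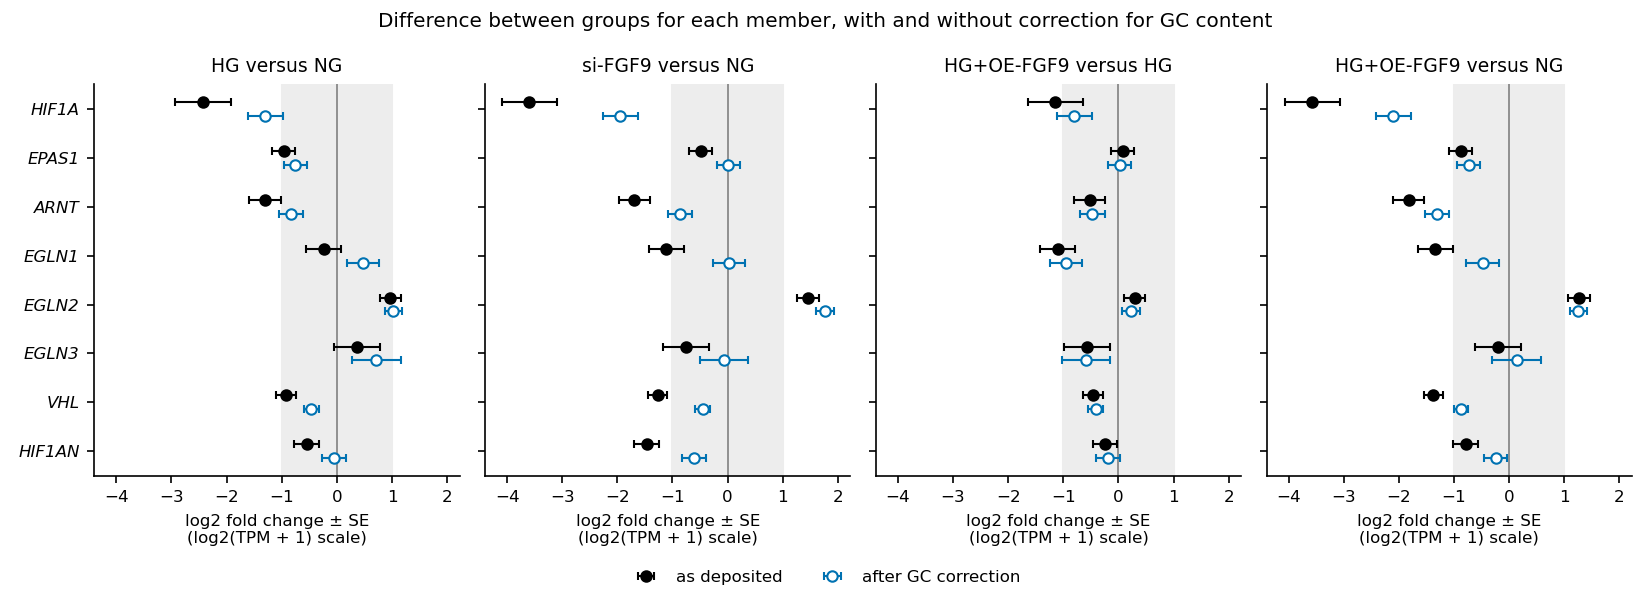
Log2 fold change ± SE of each member (log2(TPM + 1) scale, 3 libraries a group) in 4 comparisons, as deposited (filled black) and after the correction for GC content (open blue); the grey band marks changes of less than 1. HIF1A stayed below -1 in the 3 comparisons with NG on both scales and EGLN2 stayed positive throughout, while EGLN1 for si-FGF9 versus NG went from -1.12 to 0.021.

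Fold changes followed GC content over all genes, and the members differ in it. The longest GENCODE transcript has 36.4% GC in HIF1A, 44.1% in EGLN1, 46.8% in HIF1AN, 47.1% in ARNT, 47.3% in VHL, 49.4% in EGLN3, 52.6% in EPAS1 and 55.8% in EGLN2. The member with the lowest GC content was thus the one that fell most, and that with the highest was the one that rose. After a correction that removed this trend and the overall shift from each library, HIF1A was still lower for HG versus NG (-1.30, adjusted p = 0.0114), for si-FGF9 versus NG (-1.95, adjusted p = 0.000363) and for HG+OE-FGF9 versus NG (-2.10, adjusted p = 0.000256), and met the criteria in all 3. EGLN2 was still higher in the same comparisons, at 1.02 (adjusted p = 0.00149), 1.77 (adjusted p = 8.02e-06) and 1.26 (adjusted p = 9.42e-05). ARNT still met the criteria for HG+OE-FGF9 versus NG alone (-1.30). No other member met them in any comparison. That left 2 of 8 members for HG versus NG, against 6.84% of all genes with a GC value, 2 for si-FGF9 versus NG, against 24.3%, 0 for HG+OE-FGF9 versus HG, against 5.21%, and 3 for HG+OE-FGF9 versus NG, against 23.1%. Beside the 0 for HG+OE-FGF9 versus HG, 3 members had an unadjusted p under 0.05 in the corrected limma fit, all lower. That cut sets no limit on the fold change, so the 5.21% is not its background. The share of all genes at it is not given here. The part of GC content in the differences was not tested beyond this correction.

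**Figure D4:**
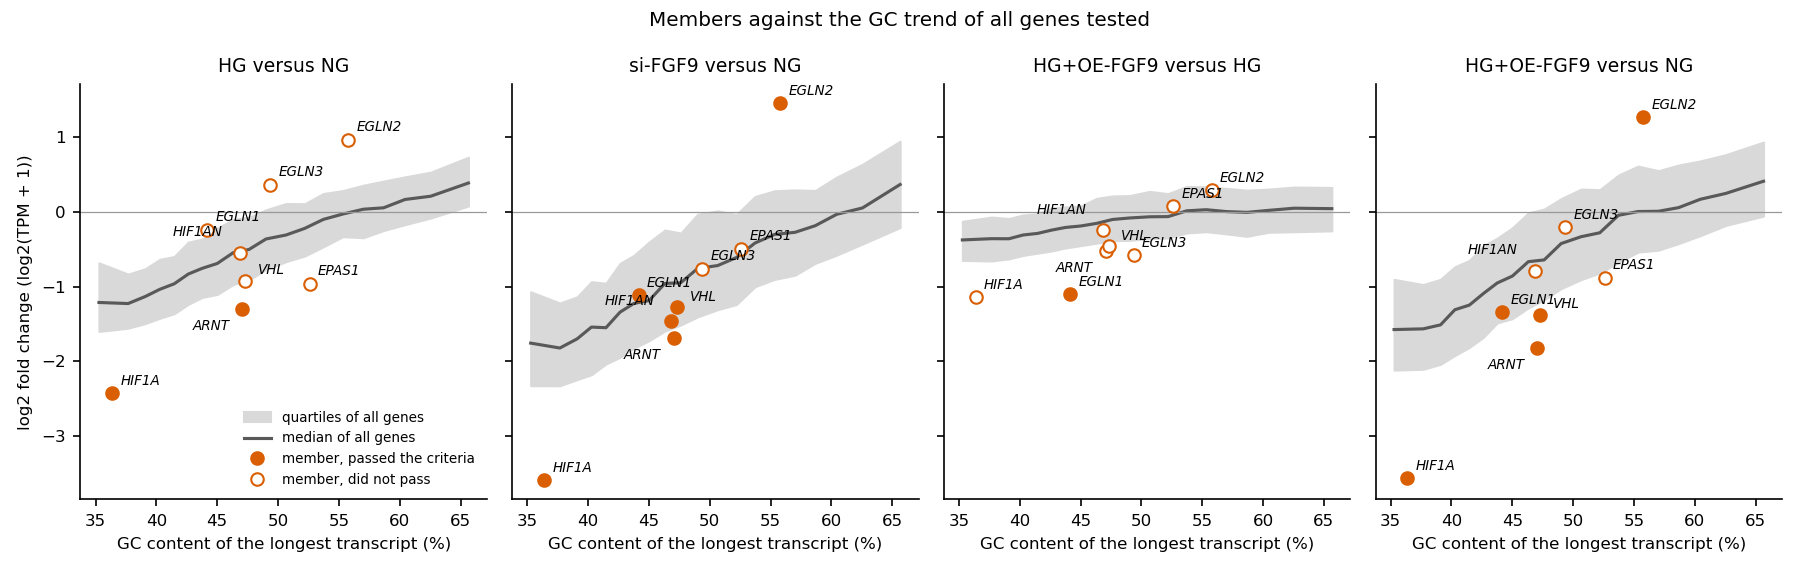
Log2 fold change of the members (circles, filled where they met the criteria) against the GC content of their longest transcript in percent, with the median (line) and quartiles (band) of all genes tested in 20 bins of equal size, for 4 comparisons. HIF1A lay below the band and EGLN2 above it in the comparisons with NG, and EGLN1 and EPAS1 lay within it for si-FGF9 versus NG.

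Some genes share sequence or position with a member. HIF1A-AS3 (ENSG00000258667, chromosome 14, 61715558 to 61751097, minus strand) is a noncoding RNA antisense to HIF1A. It had 31.46, 22.05 and 20.14 TPM in NG, 34.16, 23.32 and 12.39 in HG, 8.58, 9.57 and 5.93 under si-FGF9, and 6.32, 6.15 and 9.76 under HG+OE-FGF9. For HG versus NG its log2 fold change was -0.16 (adjusted p = 0.725), or 0.30 with the GC correction, and it fell by 1.498 for si-FGF9 versus NG (adjusted p = 0.00136; with the GC correction -0.68, which did not meet the criteria) and by 1.45 when FGF9 was overexpressed in high glucose (adjusted p = 0.0181). As a share of HIF1A TPM it was 5.20% ± 0.773 in NG, and 43.6%, 62.8% and 5.74% in the HG libraries. HIF1A and HIF1A-AS3 overlap on opposite strands, and whether counting used the strand is not given in the sources used here, so reads of the 2 cannot be told apart where they overlap. HIF1A-AS1 stayed at 0.28 TPM or less. The readthrough gene RAB4B-EGLN2, whose sequence includes that of EGLN2, had 0.13% to 8.42% of the TPM of EGLN2, with 0.11 to 3.74 TPM and no change that met the criteria. RAB4B itself, between 14.91 and 23.17 TPM, did not meet them either. EGLN3-AS1 and VHLL were listed at 0 in all 12 libraries. The pseudogenes HIF1AP1 and EGLN3P1 were listed at 0 as well, and EGLN1P1 reached 0.06 TPM at most.

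The ligase that pVHL serves was measured through 7 further components. ELOB (elongin B) rose by 1.31 for HG versus NG and by 2.11 for si-FGF9 versus NG on the log2 scale. Its TPM was 116.58, 185.18 and 186.66 in NG, 379.7, 522.03 and 314.48 in HG, and 632, 674.77 and 770.47 under si-FGF9. CUL2, the cullin scaffold, had 27.74, 23.47 and 21.3 TPM in NG, 8.26, 4.2 and 10.32 in HG, and 2.56, 3.1 and 1.52 under si-FGF9. It fell by 1.62 for HG versus NG and by 2.91 for si-FGF9 versus NG. The ubiquitin-conjugating enzyme gene UBE2D1 fell as well, with log2 fold changes of -1.08 in the first comparison and -1.85 in the second, and with the GC correction stood at 0.014 and -0.29. These 3 genes were the ones that met the criteria in both comparisons, leaving 4 that did not (ELOC, RBX1, NEDD8 and UBE2M). So 3 of 7 stood beside 24.4% and 47.6% of all genes. With FGF9 overexpressed in high glucose 0 of 7 met the criteria in the limma fit, against 5.61% of all genes. At an unadjusted p under 0.05 in that fit 2 were higher and 1 lower. The share of all genes at that looser cut is not given here. The median of the 7 was -0.030, -0.14 and -0.042, against -0.39, -0.79 and -0.13 over all genes. With the GC correction CUL2 met the criteria for si-FGF9 versus NG (-1.35) and not for HG versus NG (-0.58), and ELOB met them in both, as RBX1, the RING subunit, then did (1.24 and 1.29).

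Of 20 genes for partners and modifiers of HIF, 17 were tested, and HIF3A, ARNT2 and AHRR were too low. By the criteria 5 were lower and 0 higher for HG versus NG, and 6 lower and 1 higher for si-FGF9 versus NG. With FGF9 overexpressed in high glucose the limma fit had 2 higher and 1 lower at an unadjusted p under 0.05. There 0 met the criteria, against 5.61% of all genes. Among all genes 22.7% were lower and 1.65% higher in the first comparison and 42.2% lower and 5.36% higher in the second, close to the shares in this list. The medians of -0.42, -0.85 and -0.23 were close to those of all genes. AHR, the dioxin receptor that also pairs with ARNT, had 10.93, 10.85 and 9.85 TPM in NG, 2.09, 1.05 and 3.69 in HG, and 0.55, 1.24 and 0.73 under si-FGF9. It fell by 1.90 in HG and by 2.67 under si-FGF9 relative to NG. USP33, a deubiquitinase, fell by 1.40 in HG, and the coactivator gene EP300 by 1.87 under si-FGF9. CITED4, which binds the same coactivators, rose by 1.19 under si-FGF9, from 11.25, 19.1 and 17.24 TPM to 32.89, 31.19 and 47.52, but by 0.29 with the GC correction, which did not meet the criteria. With the GC correction 0 of the 17 met the criteria for HG versus NG in the limma fit, against 6.84% of all genes. For si-FGF9 versus NG 2 met them, AHR and EP300, against 24.3%. At an unadjusted p under 0.05 the corrected limma fit for HG versus NG had 2 higher and 6 lower. The share of all genes at that looser cut is not given here.

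A list of 25 well-known HIF target genes was used to set the members beside the transcripts that HIF drives. EPO was too low to test, at 0.21 TPM or less, which left 24. By the limma fit 9 were lower and 0 higher for HG versus NG, 14 lower and 2 higher for si-FGF9 versus NG, and 11 lower and 0 higher for HG+OE-FGF9 versus HG. The shares of all genes that were lower were 22.7%, 42.2% and 2.67%, and those higher 1.65%, 5.36% and 2.94%. At an unadjusted p under 0.05 in that fit, whatever the size of the change, 13 were lower and 2 higher for HG versus NG. For HG+OE-FGF9 versus HG 17 were lower and 0 higher at that cut. The share of all genes at that looser cut is not given here. The median log2 fold changes were -0.78, -1.37 and -0.89, against -0.39, -0.79 and -0.13 over all genes. For HG versus NG the largest decreases were in P4HA1 (-1.80), a collagen prolyl hydroxylase subunit, and NDRG1 (-1.70), a stress-response gene. P4HA1 went from 313.84, 264.72 and 246.56 TPM in NG to 90.77, 51.69 and 101.36 in HG, and with the GC correction its change (-0.81) did not meet the criteria. For si-FGF9 versus NG they were in the histone demethylase gene KDM3A (-2.34) and the MYC antagonist gene MXI1 (-2.31). CA9, the carbonic anhydrase often read as a HIF marker, went the other way under si-FGF9, as did the glycolytic gene ALDOA, with log2 fold changes of 1.57 and 1.02; ALDOA missed the criteria with quantile normalization (0.85). For HG+OE-FGF9 versus HG the 2 largest decreases were in PFKFB4, a regulator of glycolysis, and CA9. PFKFB4 had 24.14, 23.48 and 3.21 TPM in HG and 1.48, 1.64 and 2.3 under HG+OE-FGF9 (log2 fold change -2.30, adjusted p = 0.0188). CA9 had 99.66, 127.74 and 38.84 in HG and 19.95, 19.19 and 25.09 under HG+OE-FGF9 (log2 fold change -1.85, adjusted p = 0.00601). With the GC correction 4 targets were lower and 0 higher for HG versus NG, and 7 lower and 2 higher for si-FGF9 versus NG. For HG+OE-FGF9 versus HG 7 were lower and 0 higher. In these comparisons 3.06%, 12% and 2.18% of all genes were lower after the same correction, and 3.78%, 12.3% and 3.03% higher. Leaving out HG replicates 1, 2 and 3 in turn gave 7, 11 and 13 lower for HG+OE-FGF9 versus HG, beside 1.77%, 6.38% and 3.13% of all genes. It gave 10, 6 and 9 lower for HG versus NG, beside 22.5%, 14.5% and 28.7%, with CA9 and ALDOA higher without HG replicate 3.

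The split of HG seen in EGLN3 ran through the targets. In HG replicate 3 HIF1A, EPAS1 and ARNT were higher than in the first 2 libraries, and EGLN1, EGLN2, EGLN3 and HIF1AN lower. The mean of the first 2 was 15.6 times the third for EGLN3 and 1.83 times for EGLN1, but 0.267 times for HIF1A. Among the 24 targets 15 were lower in HG replicate 3 than in both others, 2 lay between and 7 were higher, where over all genes tested 33.2% were lower, 18.1% between and 48.7% higher. PFKFB4, ANGPTL4 and ANKRD37 were 7.42, 6.79 and 5.51 times higher on average in the first 2 libraries than in the third. In the first 2 libraries EGLN3, CA9, PFKFB4, ANKRD37, ANGPTL4, ENO1 and ALDOA lay above every NG library while HIF1A RNA was far under NG. This split and these genes were chosen after the values were seen, and what sets the libraries apart was not tested.

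**Figure D5:**
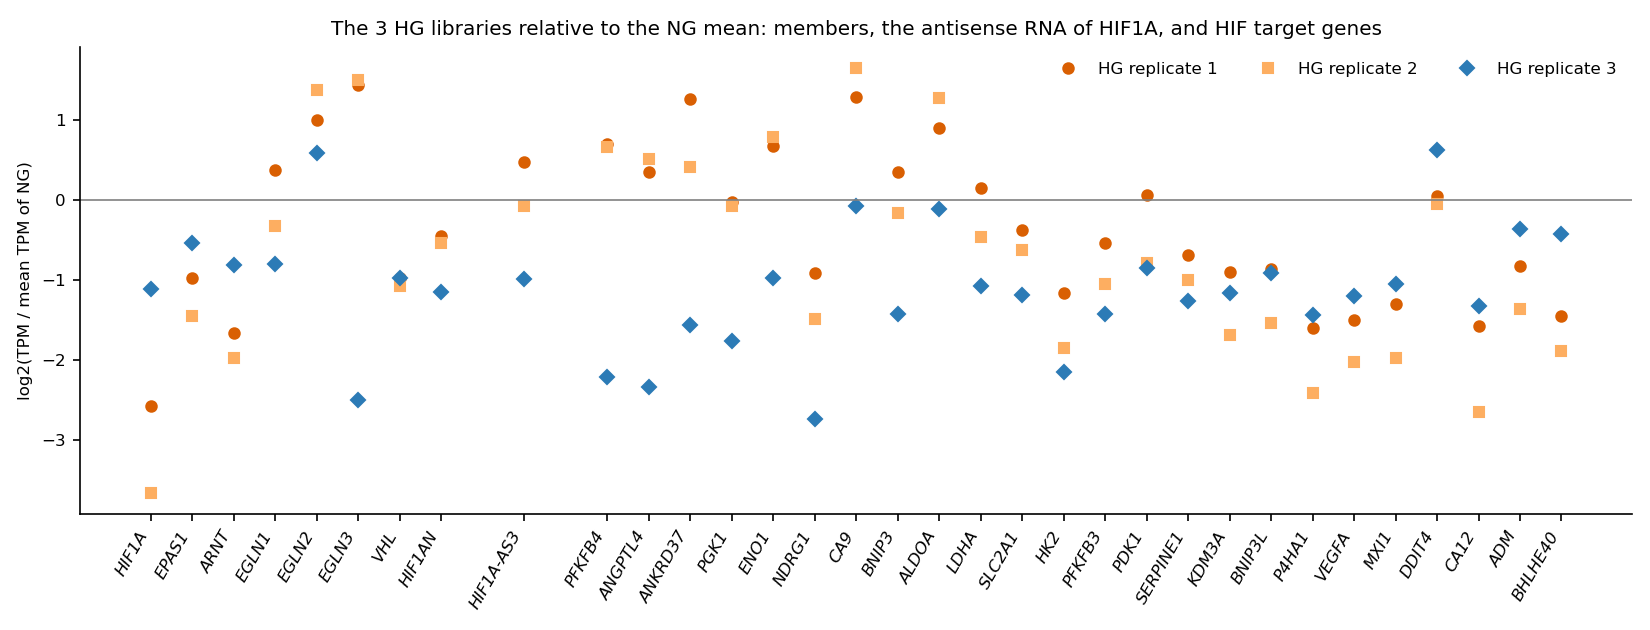
The 3 HG libraries relative to the mean of NG, as log2 of the TPM ratio, for the 8 members, HIF1A-AS3 and 24 HIF target genes ordered by the ratio of replicates 1 and 2 to replicate 3. Replicate 3 (diamonds) was highest of the 3 for HIF1A, EPAS1 and ARNT and lowest for EGLN3, HIF1A-AS3 and 15 of the 24 targets.

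The genes whose pattern was most like each member over the 12 libraries were named by Pearson's r on the log2(TPM + 1) scale among about 6058 genes with a symbol and a mean of 10 TPM or more, as a description with no test. The libraries of a group share their treatment, and the GC trend runs through all of them. HIF1A was closest to CEP170, ATP1B1 and FNBP1L (r = 0.998 for each), and ARNT to LIX1L, SMAD2 and SEL1L3 (0.992). VHL was closest to PXDN, NEK6 and MED14 (0.991, 0.989 and 0.988), and EPAS1 to MET, HBP1 and OXR1 (0.967, 0.960 and 0.957). EGLN2 was closest to PRDX5, AURKAIP1 and TAF10 (0.993, 0.987 and 0.987). EGLN1 was closest to PLAC8 (0.983), then to HIF1A-AS3 (0.968) and STK38 (0.944). EGLN3 was closest to GEMIN7, RELA and CBX5 (0.956, 0.955 and 0.951), and HIF1AN to ANAPC5, MXRA7 and KDM2A (0.977, 0.974 and 0.973).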

How the data were processed

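Total RNA of HK2 cells was sequenced on the Illumina platform, and the authors deposited TPM values for each Ensembl gene and library, to 2 decimals. The submitters' processing notes name Bowtie 0.12.2 and build mm8, a mouse build, for these human tables; the quantifier and annotation are not given in the sources used here. TPM keep no depth, so no count test, interval or limit for a count of 0 was possible. The labels do not say that replicates are separate cultures, so p-values measure the spread between these libraries, which may be technical. With 3 libraries against 3 an exact permutation test cannot go below 0.1.

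Groups came from the sample descriptions. Log2(TPM + 1) values of genes reaching 1 TPM in at least 3 libraries were fitted with limma 3.58.1 in R 4.3.3 (empirical Bayes with a variance trend, all 12 libraries, group as the only term), with Benjamini-Hochberg adjustment over all 14639 genes. The fit was tested on simulated data. Shares and ratios were compared by exact permutation tests (SciPy 1.17.1). GC content and positions came from GENCODE release 29 (GRCh38), with a GC value for 96.9% of tested genes; the authors' build may differ. The GC correction subtracted a natural spline with 5 degrees of freedom from each library, which also removes its overall shift. Promoter sequences are RefSeq, GRCh38.p14.

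The members, lists and tests were chosen with earlier results of these data known. Named are the members, genes overlapping them, from each list the 2 largest changes each way among genes meeting the criteria in the study's 3 comparisons, and 3 genes most like each member. Alternatives were no filter, the 6 libraries alone, a replicate block, other thresholds (0.05), a pseudocount of 0.1, 2 scalings, the GC correction and each library left out. List counts without each HG library were added after the values were seen. A table of all libraries repeated the values and was not used. Some of the marker genes are not reported here.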

Additional observations from a re-analysis of the deposited data

How the results depend on the processing

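With no filter, a pseudocount of 0.1 or an adjusted p under 0.05, all 32 member log2 fold changes (8 members in 4 comparisons) kept their direction and their side of the criteria. Same-numbered libraries did not deviate together (correlations of deviations from group means -0.44 to 0.25, 3 of 18 over 0.1, and 3 of 12 libraries closest to their own number), so the number does not pair them; with the replicate block the members meeting the criteria numbered 2, 6, 1 and 5 for the comparisons HG/NG, si-FGF9/NG, HG+OE-FGF9/HG and HG+OE-FGF9/NG, as without it. For HG+OE-FGF9/HG the number became 0 with its 6 libraries alone, against 4.26% of all genes. At p under 0.05 it became 2 (EGLN1 and HIF1A), against 6.72%. Median of ratios scaling, quantile normalization, the GC correction and the GC correction with the block gave the same numbers in 3 comparisons. These were 2 for si-FGF9/NG, 0 for HG+OE-FGF9/HG and 3 for HG+OE-FGF9/NG. In that order of settings 36.7%, 33.3%, 24.3% and 24.1% of all genes met the criteria for si-FGF9/NG. The shares were 5.42%, 5.5%, 5.21% and 5.12% for HG+OE-FGF9/HG, and 34.7%, 32.9%, 23.1% and 22.9% for HG+OE-FGF9/NG. These 4 settings also remove the overall shift of a library, and the cause of the remaining losses was not tested. Leaving out 1 library gave 2 to 5 members for HG/NG (5 without HG replicate 3), against 15.4% to 32.6% of all genes. It gave 5 to 6 for si-FGF9/NG, against 45.5% to 47.7%, and 5 for HG+OE-FGF9/NG, against 35.8% to 44.8%. For HG+OE-FGF9/HG it gave 0 to 2. The number was 0 without HG replicate 1 or without HG+OE-FGF9 replicate 1 or 2, against 3.03% to 4.53%. It was 2 without HG replicate 2 or 3, against 9.33% and 6.81%.

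Signs turned as follows, in the order median of ratios, quantile, GC, and GC with block. EGLN1 for HG/NG became 0.27, 0.15, 0.47 and 0.47, EPAS1 for si-FGF9/NG 0.54, 0.069, 0.016 and 0.016, and EGLN3 for HG+OE-FGF9/NG 0.19, 0.21, 0.13 and 0.13. HIF1AN for HG/NG became 0.072 under quantile normalization, and EGLN1 for si-FGF9/NG 0.021 under both GC corrections. Leave-one-out ranges that crossed 0 were -0.54 to 0.030 for EGLN1 for HG/NG and -0.14 to 0.30 for EPAS1 for HG+OE-FGF9/HG. Depth is unknown, which limits what can be said of EGLN3 and of genes listed at 0.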
